A study of Rattus norvegicus with 14 samples.

Results

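The cell cycle genes examined here were all probe sets, the groups of short probes that each read 1 transcript, whose single platform symbol named an A, B, D or E cyclin, a cyclin-dependent kinase (CDK), a CDK inhibitor (Cdkn), an MCM gene or a numbered Cdc gene, together with Top2a, Mki67, Pcna, Aurka, Aurkb, Plk1, Bub1 and Bub1b. The rule used names alone and no measured value. It found 81 probe sets for 57 genes among the 15866 probe sets tested: 3 D-type cyclins, 4 B and E cyclins, 16 CDKs, 8 CDK inhibitors, 6 MCM genes, 13 Cdc genes and 7 mitotic and proliferation genes. Bub1, the A-type cyclins and Cdk2 were among the covered genes that had no such probe set and are not analysed here. For 41 genes there was 1 probe set and for 16 there were several, and a gene is described by its probe set with the highest mean over all arrays unless stated.

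The arrays were 14 single-channel Affymetrix rat arrays of fetal gonads in 7 groups of 2. Testes and ovaries had been taken on embryonic day 13 (E13), 14 (E14) or 16 (E16), and a seventh group was testis of E13 kept for 3 days in organ culture on filters in CMRL 1066 medium with insulin, transferrin and albumin. Per the labels, each RNA came from a pool of 20 to 40 gonads, with 2 separate pools per group, and no group carried a transgene or a drug. Pools of whole gonads mix cell types, so that fewer cells of a type and less RNA per cell cannot be told apart in any value below.

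Cells divide when D-type cyclins with Cdk4 or Cdk6, and then E-type cyclins, drive the release of E2F factors from the retinoblastoma proteins. E2F factors are known to switch on the genes of DNA replication, among them the MCM helicase subunits and Pcna, the sliding clamp of DNA polymerase. Cdk1 with B-type cyclins then starts mitosis after a Cdc25 phosphatase has removed its inhibitory phosphates, and Cdc20 ends it with the anaphase-promoting complex. CDK inhibitors of the Cip/Kip family (Cdkn1a, Cdkn1b, Cdkn1c) hold cells out of the cycle. In the fetal gonad, Sertoli cell precursors of the testis are known for proliferation at the time of sex determination, and germ cells of the testis for a later mitotic arrest.

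Intensities are given in the deposited linear units. Of the 57 genes, 51 had a mean of at least 50 over the 14 arrays, and no member value was 0. Array medians lay between 59.5 and 69.1, and the correlation of the 2 arrays of a group over all probe sets lay between 0.949 and 0.982. Amh, the Sertoli hormone, gave 476.7 or more in testis from E14 on and after culture but no more than 38.5 in ovary, and Sry gave 162.8 and 184.9 in E13 testis and at most 28.7 in ovary. Xist, which is expressed from the inactive X chromosome of females, went against the label in 4 arrays: it gave 36.2, 269.2 and 151.1 in the libraries labelled E13 testis replicate 1, E14 testis replicate 1 and cultured testis replicate 1, and 12.8 in the library labelled E16 ovary replicate 2. The ratio of 3′ to 5′ actin probes, a sign of RNA degradation, was 3.34 for replicate 1 of E16 ovary and 2.97 for replicate 2 of cultured testis, and lay between 1.47 and 2.13 elsewhere. Chip labels fell by their form into 3 series, numbered 1 to 3 here, and are not known to be hybridisation batches. Series 2 held only testis arrays, and series 3 held ovary arrays of each age beside E13 testis replicate 1. Sex and series were thus unbalanced, and a fit with the series as a block cannot fully separate them. Series 1 held at most 1 array of a group, which for E16 ovary was replicate 2. Each member that passed is given with and without the arrays whose Xist or actin ratio is named above.

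The promoters of 4 members are printed first, Cdkn1b and Cdc25b because these genes passed a test below, and Cdk1 and Mcm5 because they carry the motifs known from genes of mitosis and of DNA replication. Each is the 250 bases before the RefSeq start of the gene in build GRCr8, 5′ to 3′ on the strand of the gene, at chr4:169491254-169491503 for Cdkn1b, chr3:138859923-138860172 for Cdc25b, chr20:19265043-19265292 for Cdk1 and chr19:13488563-13488812 for Mcm5, all on the plus strand. Capitals mark matches on either strand to TTTNNCGC (E2F-type), TTTGAA (CHR-type), CCAAT (NF-Y-type) or GGGCGG (Sp1-type). No base lay in matches of more than 1 of these motifs.
Cdkn1b: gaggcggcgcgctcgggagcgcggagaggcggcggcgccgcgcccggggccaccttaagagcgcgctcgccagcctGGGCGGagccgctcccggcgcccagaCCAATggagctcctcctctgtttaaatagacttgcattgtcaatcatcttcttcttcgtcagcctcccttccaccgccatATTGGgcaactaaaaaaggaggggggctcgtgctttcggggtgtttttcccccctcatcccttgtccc
Cdc25b: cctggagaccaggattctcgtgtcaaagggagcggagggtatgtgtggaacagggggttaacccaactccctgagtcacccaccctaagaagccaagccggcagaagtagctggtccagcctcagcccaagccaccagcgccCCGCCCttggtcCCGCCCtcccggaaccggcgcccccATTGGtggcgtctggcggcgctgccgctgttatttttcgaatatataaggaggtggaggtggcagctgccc
Cdk1: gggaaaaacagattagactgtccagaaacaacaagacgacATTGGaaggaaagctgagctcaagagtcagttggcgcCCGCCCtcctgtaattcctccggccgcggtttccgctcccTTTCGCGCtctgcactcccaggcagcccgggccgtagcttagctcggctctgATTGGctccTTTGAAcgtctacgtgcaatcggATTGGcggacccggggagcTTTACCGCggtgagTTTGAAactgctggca
Mcm5: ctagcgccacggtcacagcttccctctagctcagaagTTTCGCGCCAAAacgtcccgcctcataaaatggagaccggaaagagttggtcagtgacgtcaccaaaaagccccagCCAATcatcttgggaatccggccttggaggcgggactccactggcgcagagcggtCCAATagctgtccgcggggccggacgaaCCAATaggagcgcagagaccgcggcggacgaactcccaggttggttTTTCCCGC
Mcm5 held 3 matches of TTTNNCGC, of which a pair on opposite strands overlapped, and Cdk1 held 2, with 2 of TTTGAA and 3 of CCAAT. Cdkn1b and Cdc25b held 0 of TTTNNCGC and 0 of TTTGAA.

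Promoter windows of 300 bases, reaching 50 bases past the start, were given for 46 of the 57 genes in the RefSeq table. None was matched for Aurkb, Ccnd1, Ccnd2, Ccne2, Cdc16, Cdk6, Cdk9, Cdk13, Cdk17, Cdkn1c and Mcm4. Among the 41 genes with 1 window, TTTNNCGC stood in 8 (19.5%), against 4.92% of all 33469 windows of this length. These 8 were the 5 MCM genes with a window (Mcm2, Mcm3, Mcm5, Mcm6 and Mcm7), Cdc25a, Cdk1 and Plk1. TTTGAA stood in 10 of the 41 windows (24.4%, against 18.3% of all windows), CCAAT in 21 (51.2% against 37.5%) and GGGCGG in 30 (73.2% against 33.1%). All windows include those of non-coding genes. Of the 21851 windows of protein-coding genes, 5.83% held TTTNNCGC, 17.1% TTTGAA, 38% CCAAT and 41.8% GGGCGG. A match describes letters in a window and not a bound site.

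The spread of the cell cycle genes was near that of all probe sets. Over the 14 arrays, groups and replicates together, the median standard deviation of a member gene was 0.26 on the scale of log2(intensity + 16), and that of all probe sets was 0.28. The genes with the widest spread were Ccnd2 (0.80), Cdkn1c (0.76), Cdkn1a (0.69), Ccne2 (0.66), Cdk10 (0.61), Cdkn1b (0.52) and Cdc20 (0.51). Those with the narrowest were Cdk5, Cdk18, Cdc14a and Cdc37, each at 0.15. By role the median spread was highest for the D-type cyclins at 0.43 and the CDK inhibitors at 0.35, and it was 0.25 for the CDKs and for the MCM genes, whose members lay between 0.16 and 0.26. The heat map of all 57 genes shows pale rows for the MCM genes and strong colours for the inhibitors and for Ccnd2.

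**Figure D1:**
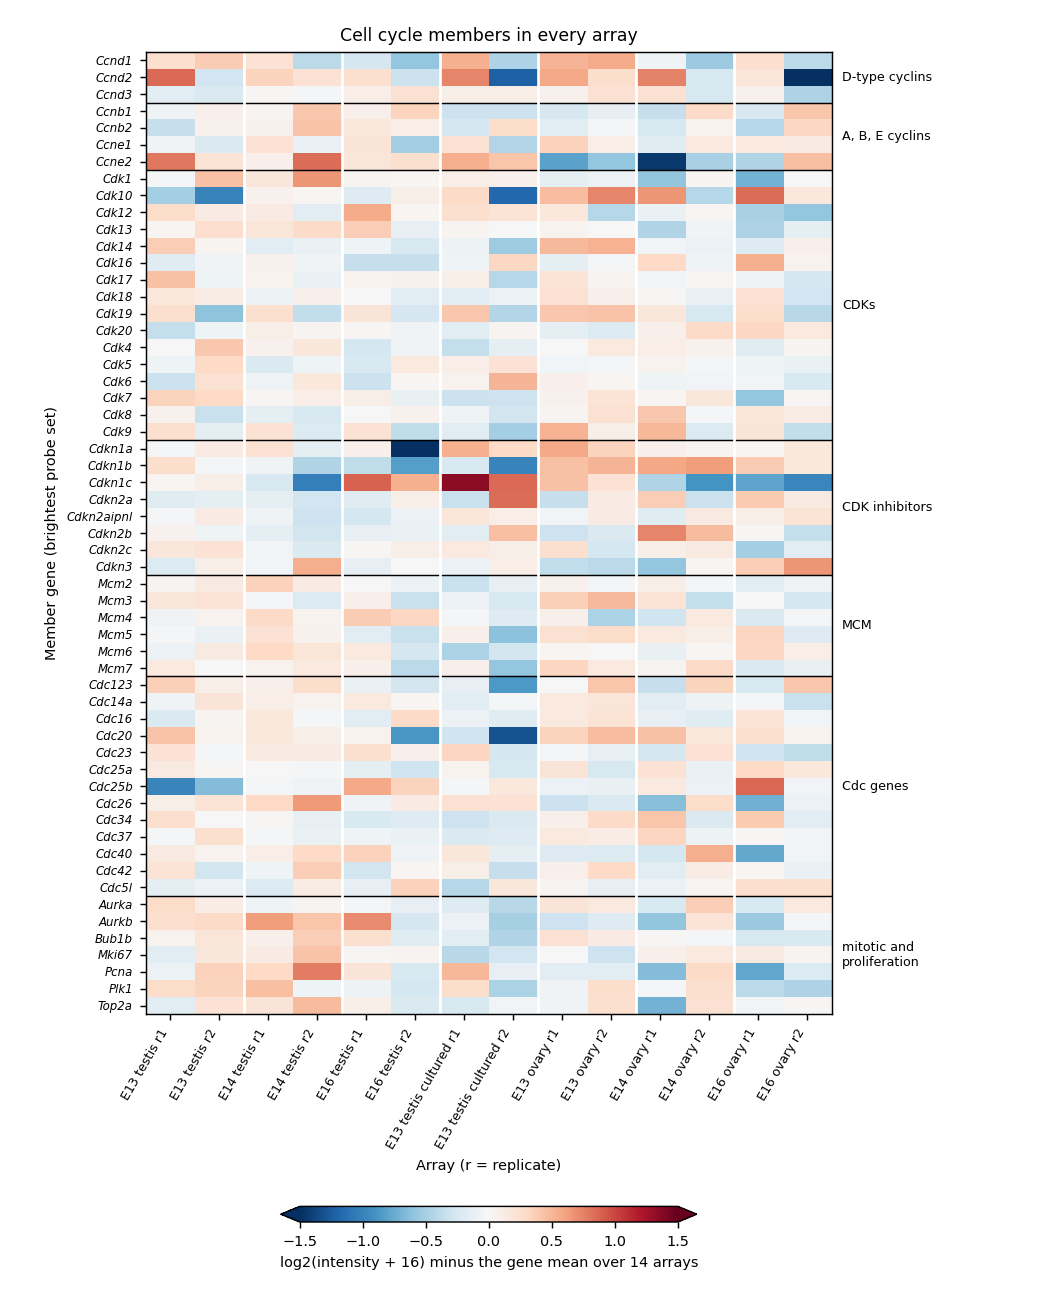
Each row is 1 of the 57 member genes and each column 1 of the 14 arrays. Colour is log2(intensity + 16) minus the mean of the gene over 14 arrays (red higher, blue lower, values beyond 1.5 at the end colours), with roles divided by black lines and groups by white lines. Cdkn1c is red in E16 and cultured testis and blue in E16 ovary, Cdkn1b is blue in E16 and cultured testis, and Ccnd2 has 2 arrays (37.9 and 78.2) and Cdkn1a has 1 array (8.6) far below their others.

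Testis and ovary were compared at each age with limma's moderated test across all 15866 probe sets, with the Benjamini-Hochberg adjustment and an adjusted p under 0.05 taken as passing. No member passed at E13 or E14, where 0.0126% and 0.139% of all probe sets passed. At an unadjusted p under 0.05 stood 4 of the 81 member probe sets at E13 and 9 at E14, against 7.79% and 8% of all probe sets. At E16 and for the mean over the ages these were 9 and 16 member probe sets, against 13% and 20% of all. At E16 1 member passed, Cdkn1c, which was higher in the testis, and 1.74% of all probe sets did. For the mean difference over the 3 ages 2 members passed, against 2.31% of all probe sets: Cdkn1b was lower and 1 probe set of Cdk13 was higher in the testis. The median log2 difference, testis minus ovary, over the 57 genes was -0.03 at E13, 0.02 at E14 and 0 at E16, beside 0.04, 0.02 and 0.05 over all probe sets.

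With age, 1 member passed in the testis, Cdc25b, which rose from E13 to E16, and 0.945% of all probe sets did. An unadjusted p under 0.05 was reached by 5 member probe sets there, against 10.7% of all. None passed in the ovary, where 0.889% of all did and where again 5 member probe sets had an unadjusted p under 0.05, against 10.7% of all. The change of the sex difference between E13 and E16 passed for no member (0.145% of all), with 3 member probe sets at an unadjusted p under 0.05 (6.49% of all). Its largest values after Cdkn1c were 1.02 for Ccnd2 and -0.98 for Ccne2 (limma adjusted p = 0.948 and 0.824). Most member genes had a negative difference with age, 38 of 57 in the testis (median log2 difference -0.11) and 41 of 57 in the ovary (-0.18), beside a median of -0.02 over all probe sets in both. With the chip series as a block these medians were -0.15 and -0.17. Both E16 ovary arrays are flagged above, replicate 1 for its actin ratio and replicate 2 for its Xist. No ovary difference with age is thus free of flagged arrays.

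**Figure D2:**
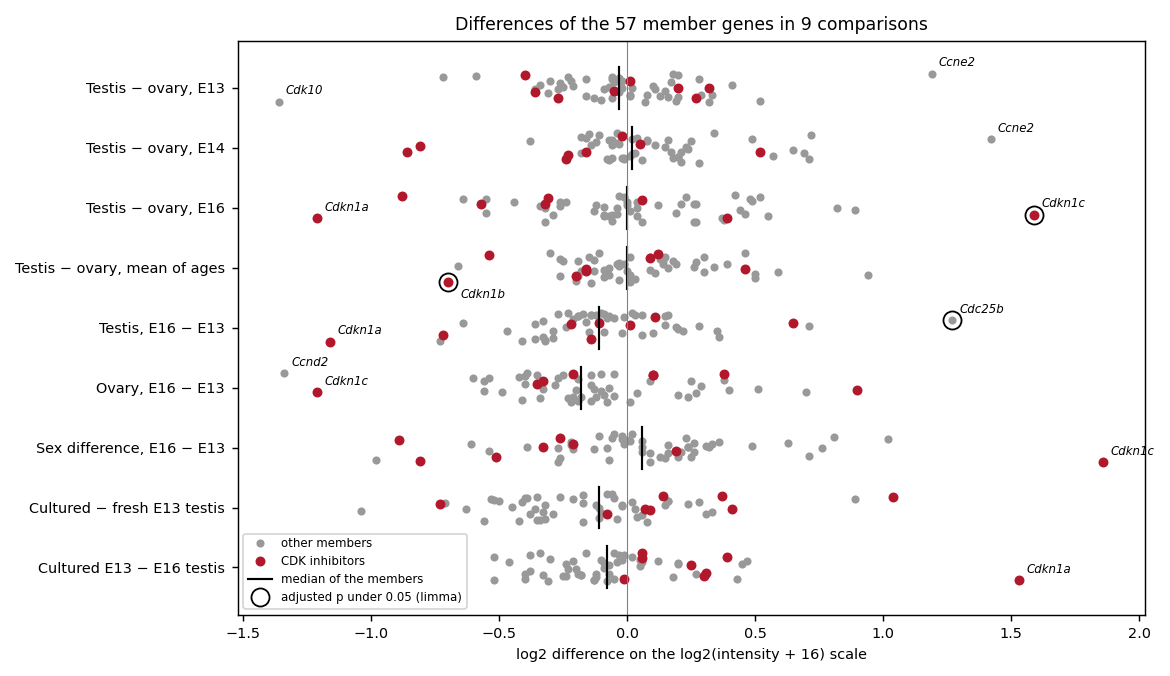
Each point is the log2 difference of 1 of the 57 member genes, on the scale of log2(intensity + 16), in 1 of the 9 comparisons, with CDK inhibitors in red and the median as a black bar. Rings mark the genes past an adjusted p of 0.05 (limma): Cdkn1c for testis minus ovary at E16, Cdkn1b for the mean over ages and Cdc25b for testis E16 minus E13. The Cdk13 probe set that passed is not the one with the highest mean and is not drawn.

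A looser view counts the genes whose arrays in both groups did not overlap. At E13 these were 24 of 57 members for testis against ovary, at E14 19 and at E16 24, beside 46.2%, 34.6% and 41.8% of all probe sets. From E13 to E16 they were 27 in the testis and 34 in the ovary, beside 41.3% and 41.4%. For cultured testis they were 25 against E13 and 19 against E16, beside 39.5% and 35.3%. The ovary had the largest member share of these, at 59.6%, and 25 of its 34 genes were lower at E16. These member counts take the brightest probe set of each gene, unlike the shares of all probe sets. Over all 81 member probe sets the ovary share was 50.6%. It rests on the E16 ovary arrays, of which replicate 1 had a high actin ratio and replicate 2 an Xist against its label.

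Among the D-type cyclins, which pair with Cdk4 and Cdk6 early in the cycle, none passed in any of the 9 comparisons. Ccnd1 gave 208 and 229 in E13 testis, 203 and 126 in E14 testis, 142 and 110.0 in E16 testis, and 255 and 120 in cultured testis. In the ovary it gave 251 and 260 at E13, 164 and 113 at E14 and 207 and 128 at E16. All E16 arrays of either sex thus lay below all E13 arrays of the same sex, with a log2 difference of -0.73 in the testis (SE 0.34, limma adjusted p = 0.479) and -0.60 in the ovary (SE 0.34, adjusted p = 0.604). Its other 2 probe sets had differences of -0.93 and -1.26 in the testis and -1.38 and -0.25 in the ovary, none of which passed.

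Ccnd2 varied more between the 2 arrays of a group than between groups. It gave 380 and 165 in E13 testis, 262 and 240 in E14 testis, 244 and 161 in E16 testis, and 351 and 78.2 in cultured testis. The ovaries gave 311 and 249 at E13, 354 and 171 at E14, and 234 and 37.9 at E16. Replicate 1 was above replicate 2 in 7 of 7 groups, by a median of 0.98 on the log2 scale, and the testis minus ovary difference at E16 of 0.89 (SE 0.73, limma adjusted p = 0.674) became -0.22 without E16 ovary replicate 2, whose Xist went against its label. Ccnd3 was steadier: its group means ran from 380 ± 10.9 (SD, n = 2) in E13 testis to 493 ± 33.9 in E16 testis, and from 486 ± 38.2 in E13 ovary to 385 ± 101 in E16 ovary. The difference between these 2 trends was 0.71 (SE 0.30, limma adjusted p = 0.723).

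**Figure D3:**
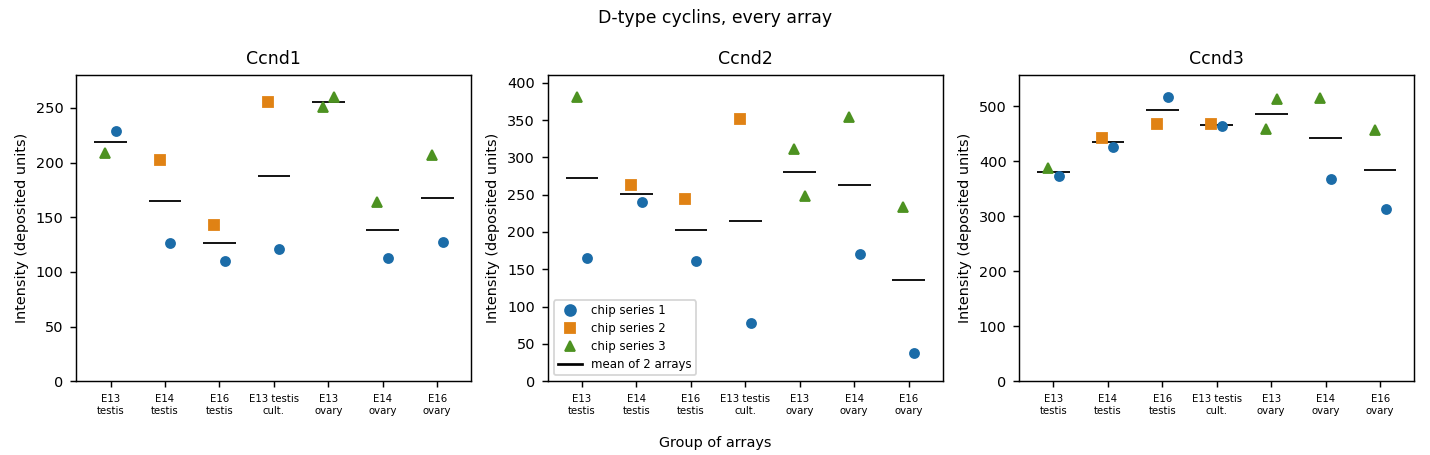
Deposited intensity (linear axis from 0) of Ccnd1, Ccnd2 and Ccnd3 in every array of the 7 groups, with the mean of the 2 arrays as a bar and the chip series by colour and shape. The pairs of Ccnd2 lie far apart, as at 351 and 78.2 in cultured testis, while the Ccnd3 arrays all lie between 313.1 and 516.6.

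Of the other cyclins, Ccne2, an E-type cyclin that works with Cdk2 at the start of DNA synthesis, came closest to passing. In the testis it gave 136 and 85.9 at E13, 77.0 and 142 at E14, and 83.9 and 88.5 at E16, with 113 and 101 after culture. In the ovary it gave 34.4 and 43.2 at E13, 16.4 and 47.0 at E14, and 48.7 and 105 at E16. Testis and ovary did not overlap at E13 and E14 and overlapped at E16. The log2 difference, testis minus ovary, was 1.19 at E13 (limma adjusted p = 0.497), 1.42 at E14 (0.266), 0.21 at E16 (0.882) and 0.94 for the mean over ages (SE 0.22, adjusted p = 0.0507). Within chip series 3 the E13 difference was 1.48, and within series 1 those at E14 and E16 were 1.33 and -0.21. The mean over ages passed in 6 of 24 other settings, among them a minimum mean of 50 (0.94, limma adjusted p = 0.0266), the chip batch as a random block (0.86, 0.0369) and the fits without E14 testis replicate 1 (1.07, 0.0456), E14 ovary replicate 2 (1.1, 0.0213) or E16 ovary replicate 2 (1.09, 0.028). It did not pass with the chip series as a block (0.80, limma adjusted p = 0.215), without the 4 arrays whose Xist went against the label (1.12, 0.091) or without the 2 with a high actin ratio (0.79, 0.136).

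The remaining cyclins showed smaller differences. Ccne1, the other E-type cyclin, ranged from 75.7 to 150.1 over the 14 arrays with a median of 125. Ccnb1, the partner of Cdk1 in mitosis, ranged from 506.3 to 863.0 with a median of 644, and its arrays were higher in testis than in ovary at E13 (623 and 684 against 546 and 593) and overlapped at E14 and E16. Ccnb2, the second B-type cyclin measured, ranged from 308.2 to 570 with a median of 436. Ccnb1 had its largest difference between cultured and E16 testis, at -0.52 (SE 0.26, limma adjusted p = 0.785).

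The CDKs comprise drivers of the cycle (Cdk1, Cdk4, Cdk6), kinases of transcription (Cdk7, Cdk8, Cdk9, Cdk12, Cdk13, Cdk19) and others with roles outside division. Of their 16 genes, 15 had no probe set that passed in any comparison. Cdk13, a kinase of RNA polymerase II elongation and splicing, was the exception through 1 of its 3 probe sets. That probe set gave 92.4 and 83.1 in E13 testis, 120 and 95.1 in E14 testis and 110 and 81.1 in E16 testis. It gave 72.1 and 54.7 in E13 ovary, 59.4 and 75.8 in E14 ovary, and 57 and 54.9 in E16 ovary, so that the sexes did not overlap at any age. The mean log2 difference, testis minus ovary, was 0.52 (SE 0.11, limma adjusted p = 0.0375), and 1.28% of all probe sets passed in this direction.

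The other 2 probe sets of Cdk13 did not pass. The brightest had the same direction, with a mean difference of 0.34 (SE 0.12, limma adjusted p = 0.172) and a higher testis mean at each age, and the remaining one gave -0.02 (SE 0.19, adjusted p = 0.95). The call held without E16 testis replicate 2 or E14 ovary replicate 2 and was lost without any other single array, with adjusted p up to 0.131. Without the 4 arrays whose Xist went against the label the difference was 0.45 (adjusted p = 0.172), without the 2 arrays with a high actin ratio it was 0.53 (0.0991), and with the chip series as a block it was 0.43 (0.181).

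Cdk1, the kinase of mitosis, had higher means in the testis at every age: 695 ± 161 against 545 ± 16.3 at E13, 808 ± 194 against 501 ± 158 at E14, and 609 ± 4.88 against 477 ± 170 at E16 (SD, n = 2). Its mean log2 difference of 0.46 did not pass (SE 0.16, limma adjusted p = 0.162). Taken within a chip series, the differences were 0.09 at E13 (series 3), 0.61 at E14 (series 1) and 0.02 at E16 (series 1). Each of these rests on 1 testis array. Cdk4, the partner of the D-type cyclins, ranged from 1114 to 1890 with a median of 1450, and its largest difference was -0.45 between cultured and fresh E13 testis (SE 0.19, adjusted p = 0.355). Cdk10 gave 24.6 and 13 in E13 testis against 64.2 and 80.2 in E13 ovary, a log2 difference of -1.36 (SE 0.46, adjusted p = 0.524). It gave 54.7 and 9.6 in the pair of cultured testes, so that its spread within 1 group was as wide as this difference.

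The named differences of the remaining CDKs were all below the threshold. Cdk16 gave 163 and 164 in E16 testis against 314 and 221 in E16 ovary, a difference of -0.64 (SE 0.21, limma adjusted p = 0.208). Cdk12, a kinase of transcription elongation, differed by 0.82 at E16 (SE 0.23, adjusted p = 0.127), but its arrays lay between 1.8 and 23.1, where the offset of 16 governs the log2 value. Cdk19, a kinase of the Mediator complex, differed by -0.59 at E13 (adjusted p = 0.713), with 132 and 66.6 in the testis and 150 and 152 in the ovary. Cdk8, its paralogue, differed by -0.38 at E14 (adjusted p = 0.685).

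The CDK inhibitors held the 2 members with the clearest group patterns, and these ran in opposite directions. Cdkn1c (p57), a Cip/Kip inhibitor known from cells that leave the cycle, gave 892 and 928 in E13 testis, 745 and 419 in E14 testis, and 1623 and 1273 in E16 testis. In the ovary it gave 1192 and 1015 at E13, 635 and 462 at E14, and 498 and 437 at E16. The testes cultured from E13 gave 2241 and 1581, the highest and the third highest values of the series. The lower E16 testis array was thus above the higher E16 ovary array, while at E13 both testis arrays lay below both ovary arrays and at E14 the sexes overlapped.

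Cdkn1c was higher in testis than in ovary at E16 by 1.59 on the log2 scale (SE 0.28, limma adjusted p = 0.0163), at group means of 1450 ± 247 and 467 ± 42.9 (SD, n = 2). In that direction 1.01% of all probe sets passed. The sex differences at E13 and E14 were -0.27 (adjusted p = 0.808) and 0.05 (0.984), and the change of the sex difference from E13 to E16 was 1.86 (SE 0.40) and did not pass (adjusted p = 0.149). The 2 trends that make it up did not pass either: 0.65 from E13 to E16 in the testis (SE 0.28, adjusted p = 0.426) and -1.21 in the ovary (SE 0.28, adjusted p = 0.081). The ovary trend passed with the chip series as a fixed block (-1.11, limma adjusted p = 0.0308) and with the chip batch as a random block (-1.20, 0.0456), and without the 4 arrays whose Xist went against the label it was -1.12 (0.31).

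The E16 call of Cdkn1c needed all 4 of its own arrays. The difference was 1.42 without E16 testis replicate 1 (limma adjusted p = 0.135), 1.76 without E16 testis replicate 2 (0.0761), 1.68 without E16 ovary replicate 1 (0.0625) and 1.5 without E16 ovary replicate 2 (0.0856), and it passed without each of the other 10 arrays. Without the 4 arrays whose Xist went against the label it was 1.5 (0.12), and without the 2 arrays with a high actin ratio 1.68 (0.0648). The pair of E16 arrays in chip series 1 alone, with E16 ovary replicate 2 as its ovary array, gave 1.51. The fit with the series as a block gave 1.41 (limma adjusted p = 0.0119).

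Markers of 3 testis cell types were, like Cdkn1c, highest in E16 and cultured testis. All 6 listed Leydig markers were measured, and their summed intensity was 4107 to 8025 in E16 testis and 3406 to 4466 in cultured testis, against 110 to 224 in every other array. The 6 of 8 Sertoli markers measured summed to 3150 to 3199 in E16 testis and 2941 to 3706 in cultured testis, against 722 to 831 in E16 ovary. At E14, where Cdkn1c was lower in testis than at E13, the Sertoli sum was higher, at 1898 to 1938 against 594 to 761. The 6 smooth muscle and peritubular markers, all measured, summed to 1410 to 1831 in E16 testis and 1130 to 1296 in cultured testis, against 608 to 986 in every other array. No Leydig marker was at or under 20 in the E16 and cultured testes, and 1 to 4 were in each ovary array. Their part in the result was not tested.

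Cdkn1b (p27), the second Cip/Kip inhibitor, was lower in the testis. It gave 260 and 208 in E13 testis, 205 and 152 in E14 testis, 160 and 114 in E16 testis, and 180 and 98.6 in cultured testis. The ovary gave 296 and 312 at E13, 327 and 340.0 at E14, and 283 and 241 at E16. The sexes did not overlap at any age, and the lowest ovary array lay above both testis arrays of E14 and E16 and below 1 of E13. The mean log2 difference over the ages was -0.70 (SE 0.15, limma adjusted p = 0.038), and 1.03% of all probe sets passed in this direction.

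At single ages Cdkn1b did not pass: the differences were -0.36 at E13 (limma adjusted p = 0.748), -0.86 at E14 (0.384) and -0.88 at E16 (0.159). The call for the mean over ages was lost without any 1 of E13 testis replicate 1 or 2, E14 testis replicate 2, E16 testis replicate 2, E13 ovary replicate 1 or 2, E14 ovary replicate 1 and E16 ovary replicate 1, with adjusted p from 0.0618 to 0.115 and differences from -0.75 to -0.63. Without the 4 arrays whose Xist went against the label the difference was -0.85 (0.0757), and without the 2 with a high actin ratio -0.66 (0.0531). Within chip series 3 the E13 difference was -0.21, and within series 1 those at E14 and E16 were -1.08 and -0.98. With the series as a block the mean difference was -0.80 (0.0183) and the E16 difference alone -1.07 (0.0228). The second Cdkn1b probe set read between 3.5 and 30.1 and did not pass in any comparison.

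Markers of the supporting cells of the ovary were, like Cdkn1b, higher in ovary than in testis. The 4 of 6 pre-granulosa markers measured (Fst, Bmp2, Lgr5 and Wnt4) summed to 489 to 1154 in the ovary arrays and 183 to 342 in the testis arrays, cultured ones included. With age in the ovary the sum went from 489 and 506 at E13 to 1040 and 644 at E16, and Cdkn1b from 296 and 312 to 283 and 241. In fresh testis the sum went from 262 and 221 to 221 and 196, and Cdkn1b from 260 and 208 to 160 and 114. The 5 of 6 mesonephros and kidney markers measured were near each other at E13 (432 to 474 in testis, 444 to 461 in ovary). They were lower in testis at E14 (258 to 372 against 479 to 564) and at E16 (161 to 252 against 340 to 341), and lowest in cultured testis (132 and 283). Their part in the result was not tested.

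**Figure D4:**
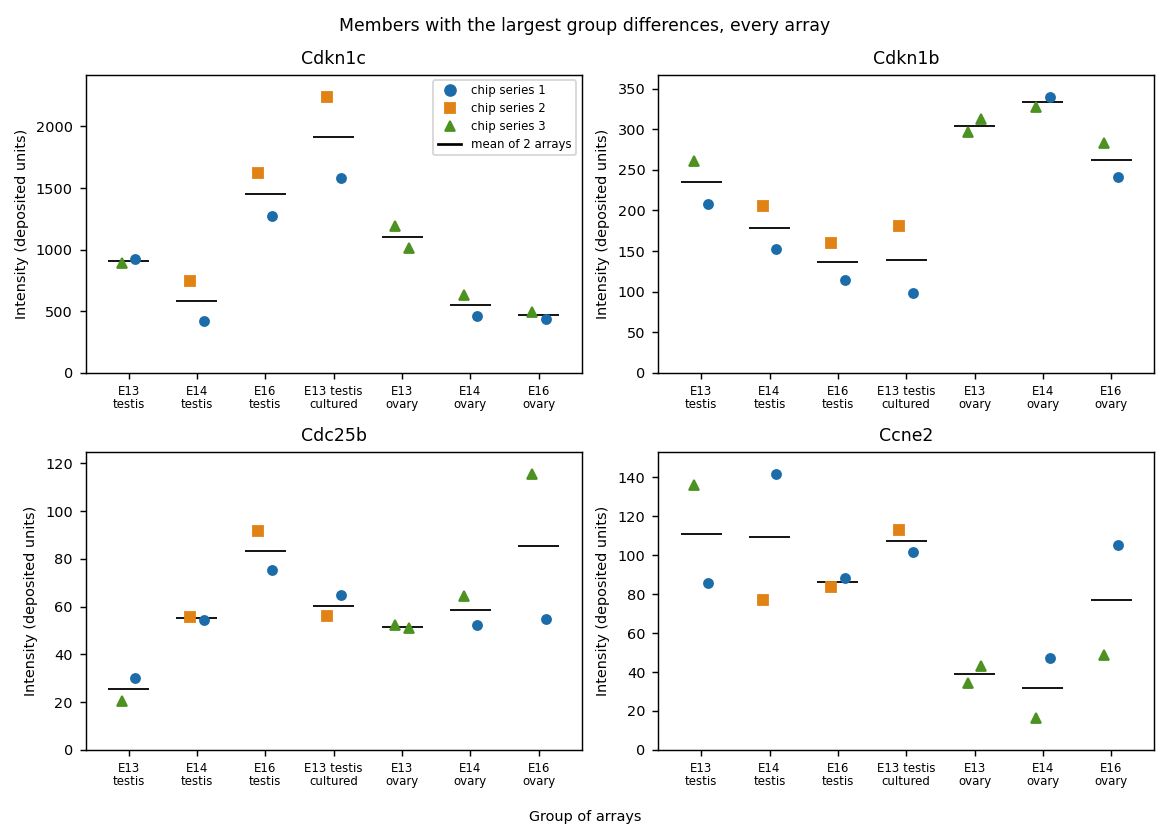
Deposited intensity (linear axis from 0) of Cdkn1c, Cdkn1b, Cdc25b and Ccne2 in every array of the 7 groups, with the mean of the 2 arrays as a bar and the chip series by colour and shape. Cdkn1c at E16 lies at 1273 and 1623 in testis and 437 and 498 in ovary, and Cdkn1b lies lower in testis than in ovary at each age.

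The other inhibitors gave no call. Cdkn1a (p21), the inhibitor induced by p53, gave 112 and 8.6 in E16 testis, and the other 12 arrays lay between 94.1 and 164.4. Its differences with E16 testis, of -1.21 against E16 ovary (limma adjusted p = 0.372) and -1.16 against E13 testis (0.473), rested on that array: without E16 testis replicate 2 the second was 0.03, and without E16 testis replicate 1 they were -2.40 (0.00198) and -2.35 (0.00255). Cdkn3, a phosphatase that acts on CDKs, gave 188 and 184 in E13 ovary and 325 and 401 in E16 ovary, a difference of 0.90 (SE 0.25, adjusted p = 0.147). In the testis it gave 212 and 263 at E13 and 227 and 249 at E16.

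The INK4 inhibitors, which block Cdk4 and Cdk6, read low or moved little. Cdkn2a read between 1.9 and 24.7 and Cdkn2b between 5.9 and 30.5. Cdkn2b gave 9.4 and 7.1 in E14 testis against 30.5 and 23.0 in E14 ovary, a difference of -0.81 (SE 0.22, limma adjusted p = 0.28). Cdkn2c ranged from 43.7 to 84.1 with a median of 74, and Cdkn2aipnl, which has a CDK inhibitor in its name and is not known as one, from 122 to 181.7.

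The 6 MCM genes encode the ring of the replicative helicase, and none passed in any comparison. Between testis and ovary their median log2 difference was -0.07 at E13, 0.11 at E14 and 0 at E16. Mcm6 had group means between 501 ± 48.9 in cultured testis and 774 ± 43.2 in E14 testis (SD, n = 2), and Mcm7 between 518 ± 169 in cultured testis and 716 ± 61.8 in E13 ovary. With age, 5 of 6 had a negative difference in the testis (median -0.16) and 4 of 6 in the ovary (-0.15). Mcm3 in the ovary was the largest of these, with 435 and 477 at E13 and 335 and 277 at E16, a difference of -0.56 (SE 0.22, limma adjusted p = 0.365). Mcm4 differed most by sex, by 0.46 at E16 (SE 0.22, adjusted p = 0.408).

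The numbered Cdc genes share a naming history and not a function. Cdc25b, a phosphatase that activates Cdk1, was the 1 that passed. It gave 20.5 and 30.3 in E13 testis, 55.8 and 54.3 in E14 testis, 91.7 and 75.3 in E16 testis, and 55.9 and 64.9 in cultured testis. In the ovary it gave 52.2 and 51.1 at E13, 64.6 and 52.2 at E14, and 116 and 54.8 at E16. E13 testis thus held the 2 lowest values of the series, and the 3 ages of the testis did not overlap.

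From E13 to E16 Cdc25b rose in the testis by 1.27 on the log2 scale (SE 0.26, limma adjusted p = 0.0496), and 0.706% of all probe sets passed in this direction. In the ovary the difference was 0.51 (SE 0.26, adjusted p = 0.531), and the difference between the sexes in this change was 0.76 (SE 0.37) and did not pass (0.783). Cultured E13 testis differed from fresh E13 testis by 0.89 (SE 0.26, adjusted p = 0.152) and from E16 testis by -0.38 (0.893). The call was held without either E16 ovary array (0.012) and lost without each of the other 12 arrays, with adjusted p up to 0.246 and differences from 1.1 to 1.44. Without the 4 arrays whose Xist went against the label the rise was 1.1 (0.158), and within chip series 1 it was 0.98. Without the 2 arrays with a high actin ratio, neither of them from fresh testis, the rise was 1.27. With the chip series as a block the call was lost, at 1.39 (limma adjusted p = 0.0585). It also depended on the offset added before the logarithm, at 1.70 (0.0625) with an offset of 1 and 0.72 (0.0865) with one of 64.

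Summed markers of several cell types were also higher in testis at E16 than at E13. The Sertoli sum was 594 to 761 at E13, 1898 to 1938 at E14 and 3150 to 3199 at E16. The Leydig sum was 181 to 208, 178 to 224 and 4107 to 8025, and the smooth muscle and peritubular sum 824 to 854, 786 to 986 and 1410 to 1831. The 2 of 7 germ cell markers measured summed to 49 to 63, 97 to 101 and 160 to 166. Red blood cell markers (5 of 8 measured) summed to 6416 to 8316, 10212 to 12310 and 10740 to 12758. The macrophage and white blood cell sum was 359 to 410, 388 to 411 and 457 to 478. The mesonephros and kidney sum was lower at E16 (161 to 252) than at E13 (432 to 474), and the endothelial sums of these ages overlapped. Their part in the result was not tested.

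Cdc20, the activator of the anaphase-promoting complex, was lowest in cultured and E16 testis. It gave 448 and 343 in E13 testis, 368 and 351 in E14 testis, 344 and 173 in E16 testis, and 264 and 124 in cultured testis, against 343 to 460 in the 6 ovary arrays. Cultured against fresh E13 testis the difference was -1.04 (SE 0.34, limma adjusted p = 0.211), and the next brightest of its 5 probe sets gave -0.65 (SE 0.27, adjusted p = 0.361). Neither passed.

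The other Cdc genes showed no call in any comparison. Cdc42, a small GTPase of cell shape and polarity, ranged from 1062 to 1749 with a median of 1390, and Cdc37, a kinase co-chaperone of Hsp90, from 656 to 957 with a median of 745. Cdc26, a subunit of the anaphase-promoting complex, had a mean sex difference of 0.50 (SE 0.17, limma adjusted p = 0.141). Cdc123, an assembly factor of translation initiation, gave 115 and 62.8 in cultured against 167 and 135 in fresh E13 testis, a difference of -0.71 (SE 0.31, adjusted p = 0.386).

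No mitotic or proliferation gene passed in any comparison. Aurkb, a kinase of chromosome segregation, gave 188 and 194 in E13 testis, 248 and 213 in E14 testis and 263 and 128 in E16 testis. In the ovary it gave 122 and 134, 97.6 and 182, and 100.4 and 151 at these ages. Its mean difference was 0.59 (SE 0.19, limma adjusted p = 0.14), and 0.18 (0.678) with the chip series as a block. The sexes overlapped at E16, where the pair of arrays in chip series 1 gave -0.22. Pcna had means of 1690 ± 357 against 1370 ± 1.27 at E13, 2250 ± 520 against 1410 ± 631 at E14 and 1520 ± 315 against 1100 ± 311 at E16 (testis against ovary, SD, n = 2). Its mean difference was 0.50 (SE 0.20, limma adjusted p = 0.201), and 0.11 (0.843) with the chip series as a block. Without the 4 arrays whose Xist went against the label it was 0.74 (0.15), and that of Aurkb 0.64 (0.214).

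Top2a, which untangles DNA before mitosis, and Mki67, the Ki-67 antigen, showed less. Top2a ranged from 343.8 to 800.3 with a median of 570 and had a mean sex difference of 0.15 (SE 0.16, limma adjusted p = 0.623). Mki67 gave 543 ± 81.7 in E14 testis and 481 ± 18.7 in E14 ovary, and 346 ± 22.3 in cultured testis (SD, n = 2). Of the 7 genes in this role, 6 had a positive mean sex difference, with a median of 0.15, as had 58.1% of all probe sets. At E16 it was 4 of 7, against 57.6% of all, and within chip series 1 Aurka (-0.28), Aurkb (-0.22), Top2a (-0.24) and Pcna (-0.02) were negative there. That comparison was of 1 testis array with E16 ovary replicate 2, whose Xist went against its label.

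Culture of the E13 testis for 3 days gave no member that passed against fresh E13 testis, where 1.39% of all probe sets passed and 12.3% stood at an unadjusted p under 0.05, as did 11 of the 81 member probe sets. Against fresh E16 testis none passed either, with 0.0945% of all probe sets passing and 3 member probe sets at an unadjusted p under 0.05, against 6.67% of all. These comparisons share the cultured arrays. Tissue cultured for 3 days was also older than fresh E13 testis, so that culture and age cannot be told apart in the first of them. Against fresh E13 testis all 6 MCM genes had a negative log2 difference (median -0.33), as had 6 of 7 mitotic and proliferation genes (-0.41) and 11 of 13 Cdc genes (-0.10). Of the 8 CDK inhibitors 6 had a positive one (median 0.11). These were Cdkn1a, Cdkn1c, the phosphatase Cdkn3, Cdkn2aipnl, which is not known as an inhibitor, and Cdkn2a and Cdkn2b, which read near the offset. Cdkn1b and Cdkn2c had a negative one. Over all 57 genes 38 were negative, with a median of -0.11 beside -0.01 over all probe sets.

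From E13 to E16 in fresh testis 5 of 6 MCM genes and 6 of 7 mitotic and proliferation genes were negative too (medians -0.16 and -0.09). In cultured against E16 testis all 6 MCM genes (-0.14), 5 of 7 mitotic and proliferation genes (-0.23) and 11 of 13 Cdc genes (-0.13) were negative. Of the 8 CDK inhibitors 7 were positive (0.27). Against E16 testis the largest differences were 1.53 for Cdkn1a (limma adjusted p = 0.605), 0.47 for Cdk16 (0.74), -0.52 for Ccnb1 (0.785) and -0.52 for Aurkb (0.875). That of Cdkn1a rested on the low E16 testis array and was 2.72 (0.00288) without E16 testis replicate 1.

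Single genes show the size of the differences from fresh E13 testis. Mcm6 and Aurkb were the lowest of their roles, in which the MCM genes ran from -0.40 to -0.11 and the mitotic and proliferation genes from -0.56 to 0.06. Mcm6 gave 466 and 535 in cultured against 613 and 717 in fresh E13 testis, a difference of -0.40 (SE 0.18, limma adjusted p = 0.415). Mki67 gave 330 and 361 against 396 and 501, a difference of -0.35 (SE 0.19, adjusted p = 0.487), and Aurkb 145 and 106 against 188 and 194, one of -0.56 (SE 0.33, adjusted p = 0.555). The arrays did not overlap for any of these 3. Cdkn1c differed the other way, by 1.04 (SE 0.28, adjusted p = 0.124), and Cdkn1b by -0.73 (SE 0.26, adjusted p = 0.266).

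Cultured testis replicate 2 stood apart from replicate 1, and the medians followed it. Its actin ratio was 2.97 against 1.66, and its red blood cell markers (5 of 8 measured) summed to 1002 against 9194. Without it the median was -0.04 for the 57 genes, -0.15 for the MCM genes (5 of 6 negative), -0.28 for the mitotic and proliferation genes and -0.02 for the Cdc genes, and that of the CDK inhibitors changed sign to -0.04. Without cultured replicate 1, whose Xist went against its label, these medians were -0.26, -0.36, -0.56, -0.30 and 0.21. Without all 4 arrays whose Xist went against the label they were -0.23, -0.43, -0.53, -0.22 and 0.10. With the chip series as a block they were -0.25, -0.35, -0.50, -0.16 and -0.01, and Cdc20 (-1.24, limma adjusted p = 0.0433) and Cdkn1b (-0.92, 0.04) passed. Mesonephros and kidney markers (5 of 6 measured) summed to 132 and 283 in cultured against 432 to 474 in fresh E13 testis. The part of these differences in the result was not tested.

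**Figure D5:**
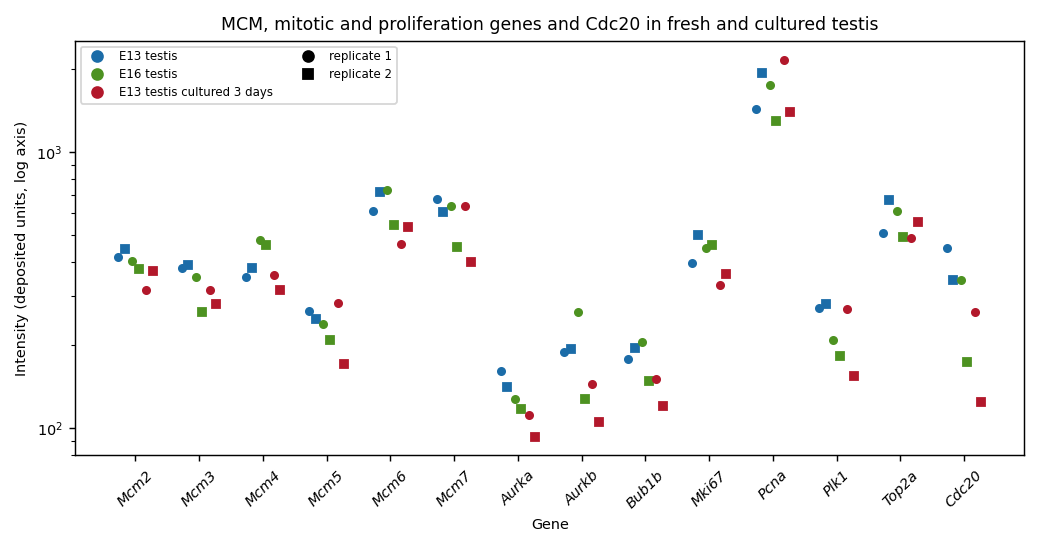
Deposited intensity (log axis) of the 6 MCM genes, the 7 mitotic and proliferation genes and Cdc20 in every array of fresh E13, fresh E16 and cultured E13 testis. Colour gives the group and shape the replicate. Cultured arrays (red) mostly lie below the fresh E13 arrays (blue), as for Mki67 at 330 and 361 against 396 and 501, and none of these genes passed.

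A list of 112 further cell cycle genes, from E2F factors to kinetochore proteins, held 69 that were measured and are not members. It was drawn up with earlier results of these data known. In cultured against fresh E13 testis 2 of the 69 passed, beside 1.39% of all probe sets, and both were higher. Ccng1, a cyclin induced by p53, rose from 124 ± 31.0 to 382 ± 55.2 (SD, n = 2), by 1.52 on the log2 scale (SE 0.20, limma adjusted p = 0.0049). Rbl2 (p130), the pocket protein of resting cells, rose from 49.8 ± 12.2 to 155 ± 18.7, by 1.38 (SE 0.21, adjusted p = 0.0097). In the ovary, where 0.889% of all probe sets passed, 1 passed from E13 to E16, Rbl2 again, from 67.0 ± 4.88 to 180 ± 45.6 (1.22, SE 0.21, adjusted p = 0.0262). None passed in the other 7 comparisons, in which between 0 and 19 of the 69 had an unadjusted p under 0.05. The 19 were for the mean sex difference over ages, where 20% of all probe sets stood under 0.05.

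The signs over this list lay as follows. In cultured against fresh E13 testis 52 of 69 were negative (median -0.18), as were 38 of the 57 members, and 48.9% of all probe sets were positive. Between testis and ovary at E14 52 of 69 were positive (median 0.20), against 31 of the 57 members (0.02) and 53.2% of all probe sets. The other comparisons were less one-sided. Between testis and ovary 41 of 69 were positive at E13, 39 at E16 and 47 for the mean over ages. With age 32 were positive in the testis and 34 in the ovary. For the change of the sex difference it was 33, and for cultured against E16 testis 20. These counts were not tested.

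Across the 14 arrays some members moved together. Cdk1 correlated with Cdc26 at r = 0.93 and with Pcna at 0.91, and Cdc26 with Pcna at 0.89. Over the 7 group means these values were 0.95, 0.96 and 0.98. Cdc20 correlated with Cdkn1b at 0.86 and Aurka with Cdc123 at 0.88, and Cdk8 ran against Cdk1 at -0.82. Over all 1596 pairs of member genes the median was 0.06, with 12 pairs at 0.8 or above and 2 at -0.8 or below. The arrays share groups and chip series, so these are descriptions without a test.

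By the correlation of the 7 group means over about 12780 named probe sets, the genes most like Cdkn1c were Frzb (0.972), Ppil4 (0.969), Col4a1 (0.968), P2ry2 (0.967) and Hsd17b13 (0.962). Those most like Cdkn1b were Mfge8 (0.994), Nxt1 (0.989), Itpr1 (0.987), Stk16 (0.987) and Bend3 (0.986). For Ccnd1 they were Dbnl (0.976), Andpro (0.958), Cxxc5 (0.952), Pbx3 (0.947) and Etfb (0.942), and for Ccnd2 Sh3bp4 (0.995), Zfp422 (0.976), Kif3c (0.976), Rbpms (0.969) and Ywhaz (0.969). The likeness is over 7 points, and Andpro read between 0.35 and 1.2 in group means.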

How the data were processed

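The authors deposited 1 linear intensity for each probe set and array, from biotin-labelled RNA by the standard Affymetrix procedure per the labels' protocols. The software that summarised the probes is not given in the sources used here. Each array had a trimmed mean of 125, so the arrays had been scaled to a common level. From the 15923 probe sets the 57 Affymetrix controls were removed.

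Members were found by their platform symbol, and genes were given by the probe set with the highest mean. The members, lists and motifs were chosen with earlier results of these data known. Values were tested as log2(intensity + 16) in a model of 7 group means over all 14 arrays (lmFit and eBayes of limma 3.58.1, R 4.3.3, with 7 residual and 4.16 prior degrees of freedom). P-values were adjusted over all 15866 probe sets by Benjamini-Hochberg, with 0.05 as threshold. The offset understates the change of dim genes. With 2 arrays a group, their number limits the precision. P-values measure the spread between the arrays of a group, which differ in pool and, except in E13 ovary, also in chip series.

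Named with values were every member that passed, the 2 members with the highest mean in each role, the 3 largest differences in each direction per comparison, and Sry, Amh and Xist as checks. A few further members outside this rule are named to describe their role group, chosen after their values were seen. Genes like a member were sought for Ccnd1, Ccnd2, Cdkn1b and Cdkn1c. Alternatives were another offset, quantile normalization, a minimum mean of 50, blocks for chip series, chip batch or replicate number, fits of the compared groups alone and fits without single arrays. Promoter sequences came from RefSeq (GRCr8) and were matched by gene ID.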

Additional observations from a re-analysis of the deposited data

How the results depend on the processing

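Other settings also changed how many of all probe sets passed, so a changed member count is no result about the members alone. The 9 counts of members that passed were recomputed under 24 other settings. At E13 and E14 the count between testis and ovary was 0 in each of them. For testis against ovary at E16 the count of 1 became 2 with the chip series as a fixed block and 2 with the chip batch as a random block. Of all probe sets 323 and 594 passed there, beside 276 in the main fit. With only the groups compared the count was 0, and 11 of all probe sets passed. It also fell without the 4 arrays with discordant Xist, without the 2 arrays with a high actin ratio and without some single arrays. Without E16 testis replicate 1 the member that passed was Cdkn1a and not Cdkn1c. For the mean over ages the count of 2 became 0 with an offset of 1, 1 with the chip series as a block and 1 with only the groups compared. Of all probe sets 297, 219 and 377 passed there, beside 366 in the main fit. The member count also fell without the discordant Xist arrays and without the high actin arrays, and it moved in both directions without single arrays. It became 3 with a minimum mean of 50 and 3 with the chip batch as a random block, with Ccne2 added each time (0.0266 and 0.0369). For testis E16 against E13 the count of 1 became 0 with an offset of 1 or of 64, 0 with the chip series as a block, 0 with only the groups compared, 0 without the discordant Xist arrays, and 0 to 1 without single arrays. Where no member had passed, the ovary from E13 to E16 gave 1 with a minimum mean of 50, 1 with the chip series and 1 with the chip batch as a block (Cdkn1c each time). Of all probe sets 178, 202 and 153 passed there, beside 141 in the main fit. Cultured against fresh E13 testis gave 2 with the chip series as a block, where 378 of all probe sets passed, beside 221 in the main fit. Some fits without single arrays also moved this count, that of cultured against E16 testis and that of the change in the sex difference.

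The replicate numbers are not said to pair samples. Deviations of same-numbered arrays from their group means correlated at -0.053 to 0.53 over 21 pairs of groups (median 0.167), above 0.1 in 15 of them. With a replicate block the ovary count was 2 (Cdkn1c and Cdkn3), beside 276 of all probe sets. That for the change in the sex difference was 1 (Cdkn1c, limma adjusted p = 0.0379), beside 28 of all. That for cultured against fresh E13 testis was 1 (Cdkn1c, 0.0307), beside 298 of all. That for the mean over ages held 3 members, with Ccne2 (0.0291) added.

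Single differences changed sign in 9 of the refits, none of a member that had passed. Ccnd2 between testis and ovary at E16 was -0.22 without E16 ovary replicate 2 and without the discordant Xist arrays (1.99 without replicate 1), and its change in the sex difference -0.08 without replicate 2 (2.13 without replicate 1). Without E16 testis replicate 2, Cdkn1a from E13 to E16 in the testis was 0.03 and its change in the sex difference 0.38, against -2.35 and -2 without replicate 1. Cdkn2a in cultured against fresh E13 testis was -0.18 without cultured replicate 2 and without the high actin arrays, and Ccnd1 in cultured against E16 testis -0.05 without cultured replicate 1 and without the discordant Xist arrays (0.94 without cultured replicate 2). The share of higher among all probe sets that passed for the mean over ages was 55.5% and 45.1% after quantile normalization. Of the 4 calls, Cdkn1c passed in 17 of 24 settings, Cdkn1b in 13, and Cdk13 and Cdc25b in 7 each. These tallies include fits without an array outside the groups compared, which leave the difference itself unchanged. They are thus no measure of how firm a call is. For the other moved values the cause was not tested. Signals near the offset of 16, as for Cdkn2a, Cdkn2b and Cdk12, limit what their differences show.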

Other observations

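Some members differed by replicate number in the same direction in most groups. Ccnd2, Cdc25a and Cdk9 were higher in replicate 1 in 7 of 7 groups, by a median of 0.98, 0.17 and 0.43 on the log2 scale. Ccnb1, Ccnb2, Cdc26, Cdk4, Cdkn3 and Top2a were higher in replicate 1 in 1 of 7 groups, with medians from -0.37 to -0.19. All replicate 2 arrays except that of E13 ovary were of chip series 1, and no replicate 1 array was. Whether the chip series had a part in these differences was not tested.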
